A study of Mus musculus with 8 samples.

Results

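The nuclear-encoded subunits of the mitochondrial respiratory chain and ATP synthase were followed in 8 neuroblastoma tumors. They were taken as the protein-coding genes whose symbols begin with Nduf and a subunit letter, Sdh, Uqcr, Cox5 to Cox8 with a subunit letter, or Atp5, together with Cyc1, without pseudogene names. The rule found 84 of 35419 gene symbols: 38 assigned to complex I, 4 to complex II, 9 to complex III, 16 to complex IV and 17 to complex V, the ATP synthase. A filter on low counts kept 81 of them among the 15193 genes tested, and the 3 removed were Cox6b2, Cox8b and Cox8c. Each tumor grew under the skin of an A/J mouse after 1000000 cells of the mouse neuroblastoma line Neuro-2a (N2A) were injected, so that host cells were sequenced with the tumor cells. The labels describe 4 tumors of mice given vehicle (numbered 0 to 3) and 4 of mice given the β3-adrenergic receptor blocker SR59230A (numbered 1 to 4). The dose was 10 mg/kg, intraperitoneally, 2 times a day. The study used young female mice of the A/JCr substrain and no other agent in these groups, and the labels give neither an age nor the meaning of a number. The paper describes sequencing in duplicate and shows tumors numbered 1 and 2 of each treatment, so tumors 1 and 2 (vehicle 1 and 2, SR59230A 1 and 2) were also compared with the other tumors (vehicle 0 and 3, SR59230A 3 and 4). Nothing in the labels says that the numbers mark a batch, and p-values measure only the spread between these samples.

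The respiratory chain passes electrons from NADH (complex I) and succinate (complex II) through ubiquinone to complex III, then by cytochrome c to complex IV, which reduces oxygen. Complexes I, III and IV pump protons, and complex V uses the gradient to make ATP. Apart from complex II, which the nuclear genome encodes in full, each complex also holds subunits from the mitochondrial genome, so that both genomes have to supply parts. The symbols leave out Cox4i1 and Cox4i2, the alternative forms of a core-binding subunit of complex IV, and take in genes that are not plain subunits of the complex they are named after. Ndufa4 is now counted as a complex IV subunit, Cox7a2l is a factor that joins complexes into supercomplexes, Ndufab1 is the mitochondrial acyl carrier protein, and Atp5s is a coupling factor B protein.

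Promoters of these genes are known for sites of NRF1, of ETS factors such as GABP, and of YY1. RefSeq promoter windows on GRCm38.p6, running from 250 bases before to 50 bases after the start, matched 67 members with 72 windows. GCGCATGC, the core of the NRF1 site, stood on either strand of 13.9% of the members' windows and of 2.71% of all 32851 windows. AAGATGGC, of the YY1 type, stood in 12.5% against 2.75%, and CCGGAAGT, of the ETS type, in 6.9% against 3.89%. These are shares of letter matches, not of bound sites. The matches of 5 members whose levels are described below follow, 5′ to 3′ on the strand of the gene, with the motif in capitals in either orientation. Ndufa8 (30 bases at chr2:36049328-36049357), Sdhb (30 bases at chr4:140961206-140961235) and Cox6a1 (the 177 bases at chr5:115348982-115349158 that precede the annotated gene) held the NRF1 core. In Cox6a1 the core and its reverse complement overlap. Cox8a (chr19:7217604-7217633) held the ETS type and Atp5j2 (chr5:145191500-145191529) the YY1 type, the latter just after the start.
Ndufa8: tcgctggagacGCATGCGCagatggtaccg
Sdhb: aagcccagtggGCATGCGCcctacgggccg
Cox6a1: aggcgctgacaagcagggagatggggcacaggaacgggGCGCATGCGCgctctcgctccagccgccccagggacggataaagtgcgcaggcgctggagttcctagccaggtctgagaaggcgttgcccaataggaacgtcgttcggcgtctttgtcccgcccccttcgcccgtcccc
Cox8a: atttccgaaatACTTCCGGctcgggcgtcc
Atp5j2: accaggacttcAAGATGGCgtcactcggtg

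The estimated counts of the tumors summed to between 23484190 and 44045575. The libraries differed in several measures. Gm10800, a gene model rich in satellite-like sequence, took 3.44% to 6.38% of the reads in vehicle 0, vehicle 3 and SR59230A 4 and at most 0.373% elsewhere. Mitochondrially encoded messages took 1.31% to 1.54% in vehicle 1, vehicle 2 and SR59230A 2 and 3.11% to 7.49% in the other 5 tumors. Skeletal muscle markers were nearly confined to SR59230A 1 and 2, where the 12 markers summed to 2358 and 196.5 CPM (counts per 1000000 of a library size adjusted by TMM factors) against 8.27 to 31.4 in the others. All 12 neuroblast markers passed the filter and summed to 2385 to 4842 CPM, so the N2A lineage was present in every tumor. The TMM factors themselves split by number, at 1.07 to 1.12 in tumors 1 and 2 and 0.879 to 0.954 in the others, and the fold changes below are relative to the bulk of genes.

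Per unit of transcript length (TPM), the members together took 1.19% to 2.76% of each tumor's TPM. Complex V supplied 32.1% to 33.8% of the members' summed TPM and complex I, with 38 genes against 17, 30.1% to 32.2%. Complex IV supplied 21.1% to 22.9%, complex III 10.1% to 11.5% and complex II 3.1% to 3.7%. These proportions varied by at most 2.1 percentage points between tumors although the members' total TPM ran from 11861 in vehicle 3 to 27553 in vehicle 2.

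Single subunits differed far more from each other than from tumor to tumor. The mean TPM of the 81 members had a median of 206.6. Atp5b, the catalytic β subunit of the ATP synthase, was the most abundant at 1282 TPM. Within the other complexes, as assigned by symbol, Ndufa4 (593 TPM), Sdhb (351), Uqcrq (397) and Cox6c (595) had the highest mean TPM. Ndufa4l2 (16.3), Sdha (94.2), Uqcrfs1 (107) and Cox6a2 (2.01) had the lowest. In complex V the lowest was Atp5s, at 11.8. Sdha and Sdhb are joined in the same enzyme, Sdha carrying the flavin and Sdhb the iron-sulfur centers. From tumor to tumor, the coefficient of variation of a member's CPM had a median of 15.3%. It ran from 6.59% for Cox7b2 to 29.8% for Uqcrq, with Cox6a2 alone above, at 126%.

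**Figure D1:**
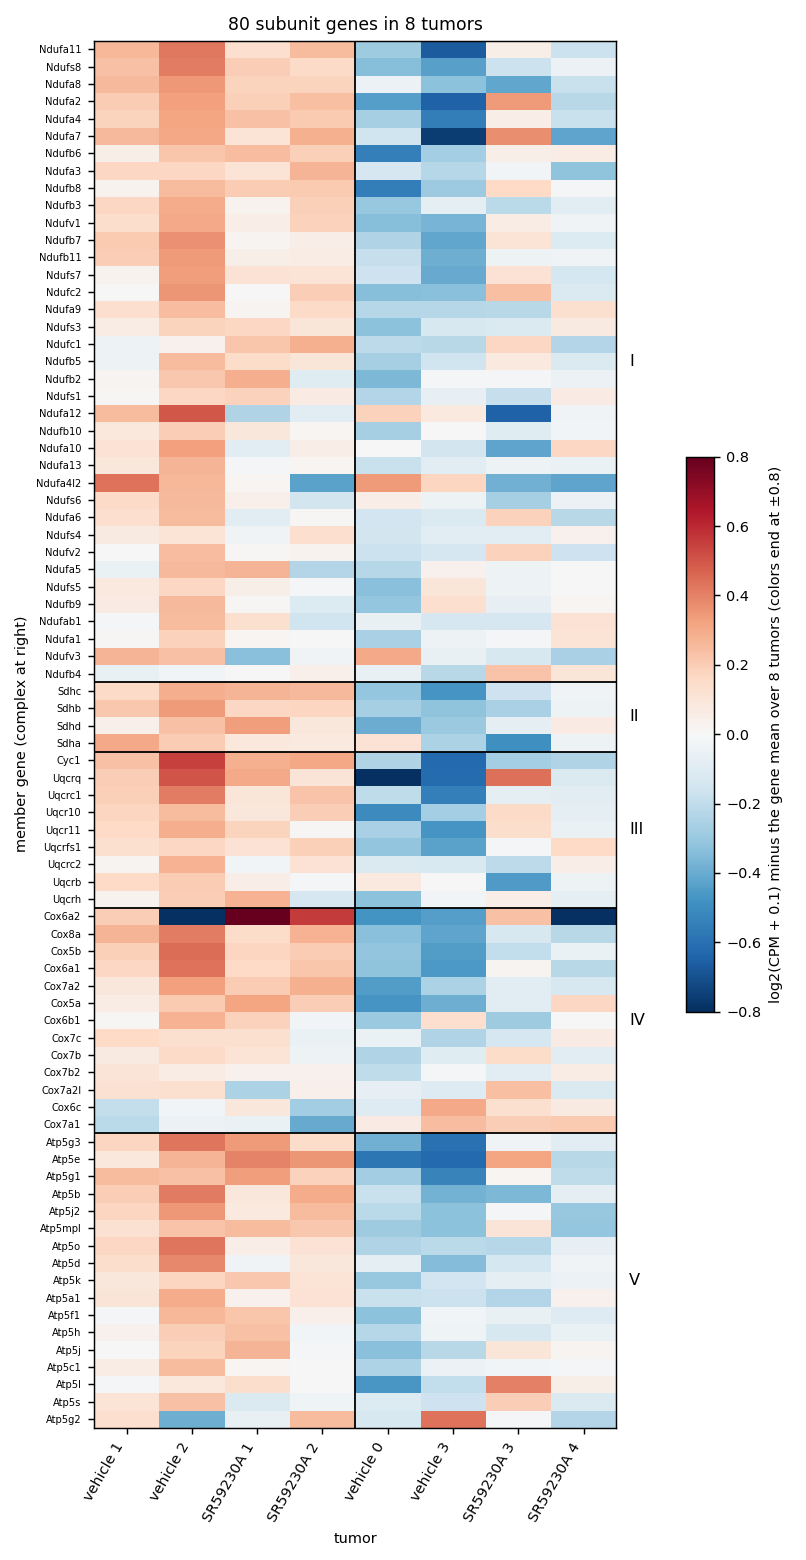
Level of 80 of the 81 members above the low-count filter (rows, grouped by complex and ordered by the difference between the tumor sets) in each of the 8 tumors (columns, with tumors 1 and 2 of each treatment left of the line). Colors give log2(CPM + 0.1) minus the gene's mean over the 8 tumors. Most rows are red at left and blue at right, vehicle 0 and vehicle 3 being the bluest columns, and Cox6c, Cox7a1, Ndufb4 and Atp5g2, whose fitted differences are not above 0 at the TMM scaling used, depart from this.

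Members of all 5 complexes were higher in tumors 1 and 2 than in the others. Of 81, 77 had a higher value and 4 a lower one, and the median log2 difference was 0.275 (1.21-fold), against 0.007 over all 15193 genes. The mean log2 CPM deviation over the members, from each gene's mean, was 0.113 and 0.240 in vehicle 1 and 2 and 0.138 and 0.091 in SR59230A 1 and 2. In the other tumors it was -0.233 and -0.226 in vehicle 0 and 3 and -0.035 and -0.088 in SR59230A 3 and 4. The sets did not overlap, and their means differed by 0.291 (0.146 ± 0.066 against -0.146 ± 0.099, SD, n = 4 each). The tests below were made with this split already known to part the libraries, so they describe it and do not stand as independent evidence. By edgeR's quasi-likelihood test, fitted with treatment, 4 members (Cyc1, Cox8a, Atp5g3 and Cox5b) passed a Benjamini-Hochberg adjusted p under 0.05 and a log2 change of at least 0.5, the study's thresholds. That is 4.94% of the members against 5.42% of all genes in either direction and 1.41% of all genes in the upward direction, so the count in either direction is near the background. At an adjusted p under 0.05 and any size, 12 members passed, all higher (14.8%), against 6.53% of all genes (2.3% as higher). At an unadjusted p under 0.05 it was 43 members, again all higher (53.1%), against 28.5%. All of tumors 1 and 2 lay above all of the others for 28 members (34.6%, against 8.88% of all genes) and below them for 1, Cox7a1 (1.23%, against 8.41%).

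The 4 calls were not stable. They fell to 0 when vehicle 0, 1, 2 or 3 or SR59230A 2 or 3 was left out. In those fits 0 to 3 of all genes were called, so the loss was not particular to members. The calls rose to 11 without SR59230A 1 (13.6%, against 9.95% of all genes) and to 9 without SR59230A 4 (11.1%, against 10.6%). With 1 tumor left out, 74 to 78 of the 81 members stayed higher in each fit, with medians of 0.213 to 0.312. Without vehicle 0, vehicle 3 and SR59230A 4, the libraries richest in Gm10800, no member was called, and 6 of all 15155 genes were. At an unadjusted p under 0.05 there were 9 of 81 members, against 3314 of the 15155 genes. The median of the members fell to 0.118 and 59 were higher, against a median of -0.017 over all genes. Without SR59230A 1 and 2, the libraries with muscle transcripts, 10 were called (12.3%, against 5.34% of all genes) and the median was 0.367. With library totals in place of TMM the median of all genes moved to 0.267, and relative to it the members stood 0.266 higher, with 44 called (54.3%, against 21.4% of all genes). Whether the satellite-like reads, the intron-retaining reads given below or the muscle transcripts take part in the difference was not tested. In bulk tumors, fewer cells of a type and less RNA per cell cannot be told apart.

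**Figure D2:**
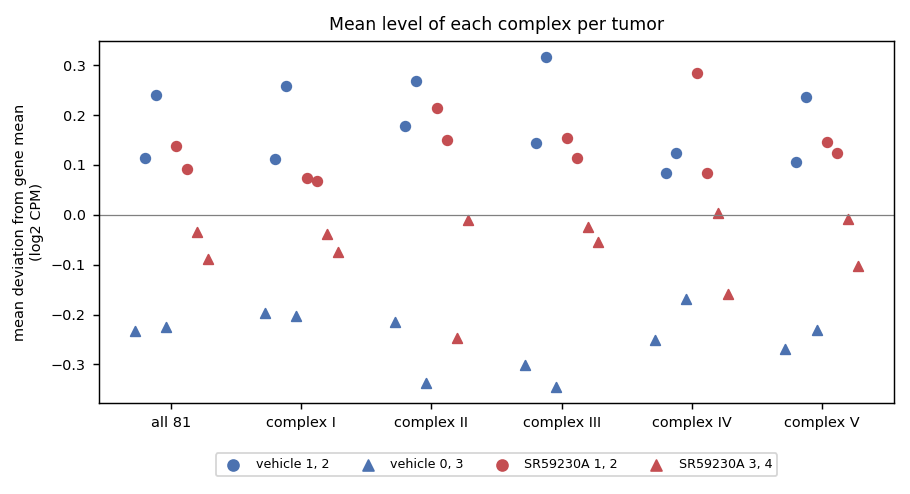
Mean deviation of log2 CPM from the gene mean, over all 81 members and by complex (x axis), with 1 point per tumor. Blue is vehicle and red SR59230A, circles are tumors 1 and 2 and triangles the other tumors. In every complex the circles lie above the triangles, and the gap is wider among vehicle tumors (0.406 over all members) than among SR59230A tumors (0.176).

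Complex II moved evenly. All 4 subunits were higher in tumors 1 and 2 (median 0.399, range 0.319 to 0.488), each at an unadjusted edgeR p under 0.05. Sdhb (chr4:140961203-140979193, + strand, GRCm38) was at 277, 303, 268 and 269 CPM in vehicle 1 and 2 and SR59230A 1 and 2, against 199, 191, 200.2 and 232 in vehicle 0 and 3 and SR59230A 3 and 4. The sets were clear of each other (log2 difference 0.44, SE 0.10, edgeR adjusted p = 0.044). Sdhc, a membrane anchor, had 83.9, 92.4, 90.9 and 90.3 CPM against 60.8, 54.3, 67.1 and 73.9 (0.49, SE 0.10, edgeR adjusted p = 0.042). Both differences had the smallest p that an exact permutation over 70 assignments can give, 0.0286. Sdhd, the other anchor, differed by 0.36 (edgeR adjusted p = 0.0694) and the flavoprotein Sdha by 0.32 (edgeR adjusted p = 0.137), with Sdha overlapping because vehicle 0 had 181 CPM and SR59230A 1 and 2 had 176 each.

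Complex III was higher in 9 of 9 subunits (median 0.320). Cyc1, cytochrome c1 (chr15:76343523-76346260, + strand), had the largest difference of the called members. It stood at 201, 249.7, 208 and 212 CPM in vehicle 1 and 2 and SR59230A 1 and 2, against 144, 111, 142 and 144.5 in vehicle 0 and 3 and SR59230A 3 and 4 (0.69, SE 0.12, edgeR adjusted p = 0.042). The core subunit Uqcrc1 also separated the sets (168 to 209 against 108 to 149 CPM; 0.46, edgeR adjusted p = 0.0591). The Rieske protein Uqcrfs1 differed by 0.30 (edgeR adjusted p = 0.118) and overlapped, SR59230A 4 at 76.5 CPM lying inside the range of 74.4 to 78.1 of tumors 1 and 2. Uqcrb, with 0.20, was among the least changed.

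In complex I, as assigned by symbol, 37 of 38 genes were higher, with a median of 0.226. In 10 of the 38 all of tumors 1 and 2 lay above the others, a larger share than the 8.88% of all genes. None was called, and 2 passed the adjusted p with smaller changes. Ndufa8, a subunit held by disulfide bonds on the intermembrane side, had 57.2, 60.7, 53.9 and 53.9 CPM in vehicle 1 and 2 and SR59230A 1 and 2, against 46.1, 37.99, 35.7 and 42.1 in vehicle 0 and 3 and SR59230A 3 and 4 (0.48, SE 0.10, edgeR adjusted p = 0.042). Ndufs8, which carries iron-sulfur clusters, had 26.7, 30.1, 25.9 and 25.2 CPM against 17.9, 16.7, 20.05 and 21.9 (0.50, SE 0.12, edgeR adjusted p = 0.0441). The membrane subunit Ndufa11 differed by 0.53 (35.1 to 42.8 against 20.03 to 33.0 CPM; edgeR adjusted p = 0.0556), and Ndufa4 by 0.47 (edgeR adjusted p = 0.0507). Of the catalytic subunits named here, Ndufs1 differed by 0.21 (edgeR adjusted p = 0.199) and Ndufv1 by 0.34 (edgeR adjusted p = 0.093). These values lay on either side of the complex median of 0.226, and both genes overlapped between the sets. Ndufb4 was the exception in direction, at -0.02.

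Complex IV was the most uneven. Of 13 tested, 11 were higher and 2 lower, and the range was -0.36 (Cox7a1) to 1.49 (Cox6a2). Cox8a (chr19:7215153-7217616, - strand), the form of subunit 8 used outside muscle, was at 121, 134, 111 and 122 CPM in vehicle 1 and 2 and SR59230A 1 and 2, against 79.5, 74.9, 91.9 and 86.1 in vehicle 0 and 3 and SR59230A 3 and 4 (0.55, SE 0.10, edgeR adjusted p = 0.042). Cox5b, a zinc-binding subunit on the matrix side, was at 146, 175, 145 and 147 CPM against 103, 93.8, 112 and 123 (0.51, SE 0.12, edgeR adjusted p = 0.0428). In both genes the sets were clear of each other. Cox6a1 (123 to 149 against 80.3 to 112 CPM; 0.49, edgeR adjusted p = 0.0471) and Cox7a2 (86.8 to 103 against 59.9 to 76.9 CPM; 0.46, edgeR adjusted p = 0.042) followed, and Cox5a, whose product binds on the matrix side, differed by 0.39 (edgeR adjusted p = 0.0608). Cox6c went the other way, at -0.20 (97.8 to 127 against 110 to 147 CPM; edgeR adjusted p = 0.328), and so was not shown to change. The signs of Cox6c, Cox7a1, Ndufb4 and Atp5g2 depend on the scaling, since on log2(TPM + 1) all 81 members, these included, were higher in tumors 1 and 2. On that scale 85.4% of all genes were higher too, with a median of 0.474, so the shift was not particular to members.

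In complex V, 16 of 17 genes were higher (median 0.290). In 10 of the 17 all of tumors 1 and 2 lay above the others, a larger share than the 8.88% of all genes. The c-ring, the rotating part of the enzyme, is made from Atp5g1, Atp5g2 and Atp5g3, which encode the same mature protein behind different import sequences. Atp5g3 (chr2:73908447-73911326, - strand) was at 189, 226, 213 and 186 CPM in vehicle 1 and 2 and SR59230A 1 and 2, against 129, 111, 165 and 158 in vehicle 0 and 3 and SR59230A 3 and 4 (0.55, SE 0.13, edgeR adjusted p = 0.045). Atp5g1 had 168, 165, 177 and 160 CPM against 116, 97.2, 142 and 122 (0.50, SE 0.11, edgeR adjusted p = 0.042). The values of Atp5g2 were 33.2, 23.0, 29.1 and 36.2 against 27.7, 41.0, 30.02 and 25.8, without order between the sets (-0.03, SE 0.18). Atp5b separated the sets (1528 to 1920 against 1106 to 1364 CPM) with a log2 difference of 0.50 but an edgeR adjusted p of 0.0678. Atp5j2, a membrane subunit, differed by 0.43 (edgeR adjusted p = 0.0495), and Atp5l, another, by 0.10.

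The partner genes of the mitochondrial genome went in the opposite direction. All 13 mitochondrially encoded genes were lower in tumors 1 and 2, with a median log2 difference of -1.85, and 8 were called. Their summed level was 12592, 12293 and 14249 CPM in vehicle 1, vehicle 2 and SR59230A 2 and 32563 in SR59230A 1, against 32653, 67283, 85312 and 34880 in vehicle 0 and 3 and SR59230A 3 and 4. SR59230A 1 was thus near the lowest of the other tumors on this measure, while its members sat with tumors 1 and 2. Other nuclear genes for mitochondria were higher as the members were, so the direction was not particular to subunits. Of 78 mitochondrial ribosomal proteins 74 were higher (median 0.297, 4 called), as were 12 of 13 genes of the citric acid cycle (0.266, 0 called) and 6 of 6 tested electron carriers (0.344, 0 called). Assembly factors, which build the complexes and are not part of them, were higher in 39 of 50 (0.185), and the only call was downward. Among 11 tested regulators of mitochondrial genes, such as Ppargc1a, Nrf1 and Gabpa, 8 were higher (0.097) and none was called. Transcripts with a retained intron held 1.90% to 2.76% of the members' reads in tumors 1 and 2 and 2.46% to 3.73% in the others. The macrophage markers summed to 243 to 330 CPM against 209.5 to 523, endothelial ones to 74.7 to 117 against 103 to 117, and neuroblast ones to 2385 to 3945 against 3092 to 4842. Taken gene by gene, 4 of 6 macrophage markers were higher in tumors 1 and 2 (median 0.479). The same held for 2 of 4 endothelial markers (-0.075) and 8 of 12 neuroblast markers (0.082), so sums and single markers did not always go together. All 4 tested white fat markers were lower in tumors 1 and 2 (-1.288, 0 called). The 5 listed summed to 9.66 to 42.8 CPM against 19.2 to 131. The part of these in the result was not tested.

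SR59230A was then compared with vehicle. No member was called, and neither was any other gene (0 of 15193; 0.0%). At an unadjusted p under 0.05 there were 3 members of 81 (3.7%), against 704 genes (4.63%). By DESeq2, 36 genes were called but no member. The median log2 difference of the members was 0.026, with 52 higher and 29 lower, against -0.002 for all genes, and by complex it was 0.024 (I), 0.073 (II), 0.059 (III), 0.019 (IV) and 0.015 (V). The mean deviation over members was 0.027 ± 0.106 (SD, n = 4) in the SR59230A tumors and -0.027 ± 0.240 (SD, n = 4) in the vehicle tumors, a difference well within the spread. Standard errors of single members, Cox6a2 apart, ran from 0.097 to 0.279 on the log2 scale, which sets how small a difference could be seen. Cell type markers did differ in value by treatment. All 7 tested skeletal muscle markers were higher with SR59230A (median 4.06, each at an unadjusted edgeR p under 0.05). The 12 listed summed to 2358, 196.5, 31.4 and 11.99 CPM in SR59230A 1 to 4, against 8.27 to 10.2 with vehicle. Most of that difference was thus in SR59230A 1 and 2. Of 12 neuroblast markers 10 were lower (median -0.30; 2385 to 3724 against 3321 to 4842 CPM), and 6 of 6 macrophage markers were higher (0.32; 314 to 523 against 209.5 to 516 CPM). All 4 tested white fat markers were higher (0.904), though the sums of the 5 listed overlapped (9.66 to 131 against 19.2 to 42.8 CPM). None of these was called, and their part in the members' values was not tested. The median turned with the tumors used. Leaving out 1 tumor at a time took it from -0.036 (without vehicle 0) to 0.131 (without vehicle 2), and it was -0.088 within tumors 1 and 2 and 0.157 within the others. Sdhb had 199, 277, 303 and 191 CPM in vehicle 0 to 3 and 268, 269, 200.2 and 232 in SR59230A 1 to 4, a log2 difference of 0.00 (SE 0.18).

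**Figure D3:**
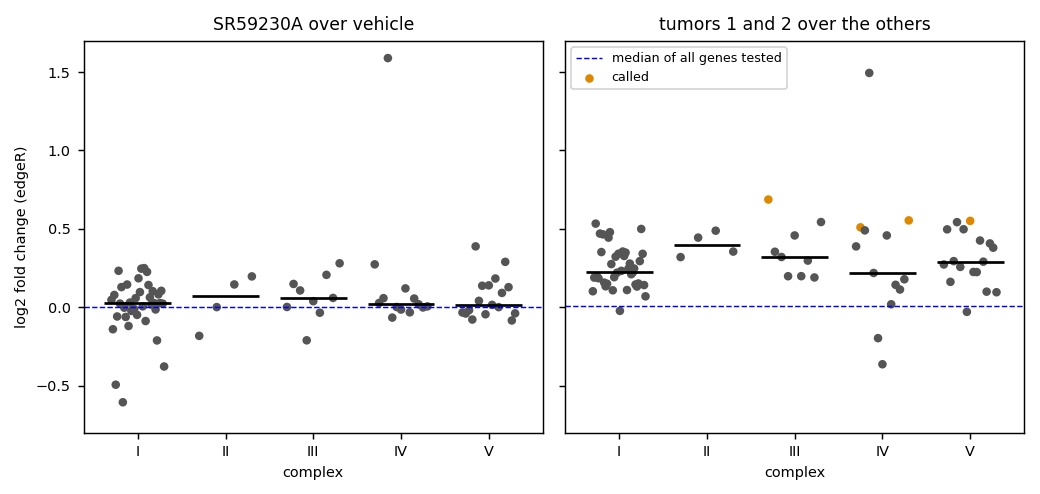
Log2 fold change of each member by complex for SR59230A over vehicle (left) and for tumors 1 and 2 over the others (right), 1 point per gene, with the median of each complex as a black bar and the median of all genes tested as a dashed line. The 4 called members are orange. Complex medians lie between 0.015 and 0.073 at left and between 0.218 and 0.399 at right, and Cox6a2 is the high point in both panels.

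Among members, 3 separated the treatment groups. Ndufa4l2 and Ndufa12 were lower in every SR59230A tumor (2.47%, against 1.28% of all genes) and Ndufb4 was higher (1.23%, against 1.33%), so these counts are near the background. Ndufb4, an accessory membrane subunit, had 14.5, 14.5, 14.9 and 12.98 CPM in vehicle 0 to 3 and 15.2, 15.6, 17.7 and 16.2 in SR59230A 1 to 4 (0.18, SE 0.11, edgeR adjusted p = 0.996). Ndufa4l2 (chr10:127514967-127517154, + strand), a paralog of Ndufa4 that is induced at low oxygen and typical of pericytes, had 7.62, 8.16, 7.24 and 6.78 CPM in vehicle 0 to 3 and 6.08, 4.44, 4.57 and 4.47 in SR59230A 1 to 4 (-0.61, SE 0.17, edgeR adjusted p = 0.996). It was counted on 94 reads or more in each tumor. Cox4i2, a complex IV isoform also known for low oxygen and pericytes and not a member, had 2.72, 1.99, 1.27 and 1.91 CPM with vehicle and 1.04, 1.53, 0.876 and 1.37 with SR59230A (-0.70, edgeR adjusted p = 0.996), and the groups overlapped. The pericyte markers, Ndufa4l2 among them, summed to 117 to 172.5 CPM with vehicle and 111 to 187 with SR59230A, and 6 of 7 had lower values with SR59230A. Ndufv3, an accessory subunit beside the flavin site, was the third at an unadjusted p under 0.05, with 85.9, 83.7, 81.7 and 66.7 CPM against 55.1, 68.1, 63.5 and 58.0 (-0.38, SE 0.11, edgeR adjusted p = 0.996).

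Whether the treatment difference was unlike in the tumor sets was tested as an interaction. No gene was called by edgeR (0.0%; 774 at an unadjusted p under 0.05, and 61 called by DESeq2, none a member), and 9 members (11.1%) had an unadjusted p under 0.05, against 5.09% of all genes. For 72 of 81 members the value was negative, with a median of -0.260. Tumors 1 and 2 exceeded 0 and 3 for 70 members (86.4%, against 30.8% of all genes) with vehicle, and 1 and 2 exceeded 3 and 4 for 40 (49.4%, against 22.1%) with SR59230A. The 9 were Ndufa2, Ndufa11, Ndufb7, Ndufb11, Ndufv1, Uqcr10, Uqcr11, Uqcrfs1 and Uqcrq, from complexes I and III. Uqcrq, a small subunit that binds near cytochrome b, was the farthest out. It had 49.2, 99.2, 123 and 56.5 CPM in vehicle 0 to 3 and 107, 93.3, 118 and 80.2 in SR59230A 1 to 4 (interaction -1.05, SE 0.29, edgeR adjusted p = 0.915). Vehicle 0 and 3 were thus low by themselves, and with SR59230A the highest tumor was number 3.

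Complex IV has forms of some subunits that are used in heart and skeletal muscle. Of these, Cox6a2 and Cox8b had few reads. Cox6a2, the striated muscle form of subunit 6a, had 7, 23, 6 and 7 reads in vehicle 0 to 3 and 88, 30, 10 and 2 in SR59230A 1 to 4. Cox8b, the muscle form of subunit 8, had 2, 2, 11 and 3 reads and then 39, 8, 8 and 2. The high tumor for both was SR59230A 1. There Ckm, muscle creatine kinase, had 2323 reads and the sarcomere protein Ttn 50034, and in SR59230A 2 they had 392 and 5967. In the other tumors Ckm had 5 to 15 reads and Ttn at most 330. The fitted differences of Cox6a2 (1.59 for treatment and 1.49 for tumor set, with edgeR adjusted p = 0.996 and 0.219) rest on these tumors. The ubiquitous partner Cox6a1 was at 80.3 to 149 CPM. Vehicle 2 was second for Cox8b by reads, though not by CPM (0.332, against 0.389 in SR59230A 3). Vehicle 2 was also the tumor with most reads of Ucp1, the uncoupler of brown fat (78, against 0 to 5 elsewhere). The list of 6 brown fat markers that holds Ucp1 did not single out vehicle 2. It summed to 5.67 CPM there and 5.07 in SR59230A 1, against 2.76 to 4.14 in the other tumors.

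**Figure D4:**
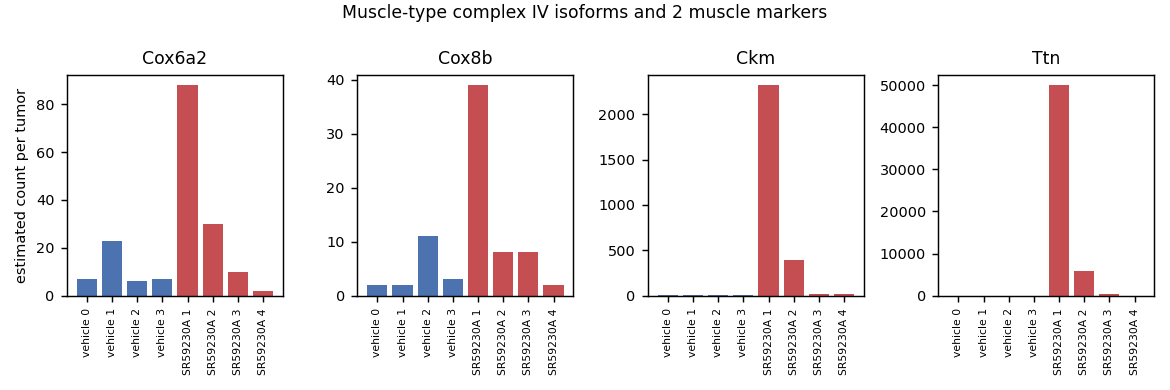
Estimated counts of Cox6a2 and Cox8b, the muscle-type forms of complex IV subunits 6a and 8, and of the muscle markers Ckm and Ttn in each tumor (bars, linear axes with a separate scale per gene, blue vehicle and red SR59230A). All 4 peak in SR59230A 1, at 88, 39, 2323 and 50034 counts.

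Other forms did not follow the muscle markers. Cox7a1, a form of heart, muscle and brown fat, was at 3.498, 2.87, 3.23 and 3.98 CPM in vehicle 0 to 3 and 3.22, 2.51, 3.84 and 3.88 in SR59230A 1 to 4, and each of tumors 1 and 2 lay below each of the others (-0.36, SE 0.19, edgeR adjusted p = 0.254). Its partner Cox7a2 was at 59.9 to 103 CPM. Cox7b2, best known from testis, was detected in every tumor at 17.6 to 21.8 CPM and 393 reads or more, the steadiest member, while the testis markers had 0 to 14 reads in all. Its partner Cox7b was at 69.9 to 91.8 CPM. The other testis form, Cox8c, had 0 reads in each tumor, which allows up to 3 reads per tumor by counting error alone, and Cox6b2, expressed in testis as well, had 0 to 5 reads while Cox6b1 was at 89.4 to 133 CPM. Cox4i1, the common form of a subunit that the rule leaves out, was at 306 to 460.5 CPM and differed by 0.20 between the tumor sets (edgeR adjusted p = 0.311).

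Subunit genes have many processed pseudogenes, and how Salmon divides reads between near-identical sequences bears on the values. Of the members, 35 had 97 pseudogene copies whose annotated transcripts matched by at least 90% identity over at least 50% of the copy, and these held 3.43% of the reads of members and copies together (3.03% to 3.92% by tumor). In 6 members the copies held over 10% of the reads. The coding sequence of Atp5g2 (441 bases) was without a difference in Gm10175 (chr7:23946646-23947290), and 83.3% of the reads of Atp5g2 and its copies were assigned to copies. In Ndufb4 it was 63.2%, mostly by Ndufb4c (390 bases without a difference), and in Ndufa12 55.4%, where Gm15920 (chr5:130188395-130188796) had 2 differences over 402 bases. The first 90 coding bases of Atp5g2 with the matching bases of Gm10175, and coding bases 115 to 204 of Ndufa12 with those of Gm15920, show how little separates them (differing bases in capitals).
Atp5g2: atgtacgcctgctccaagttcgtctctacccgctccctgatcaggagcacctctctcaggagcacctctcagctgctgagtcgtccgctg
Gm10175: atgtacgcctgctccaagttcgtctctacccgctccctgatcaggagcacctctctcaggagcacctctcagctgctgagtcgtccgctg
Ndufa12: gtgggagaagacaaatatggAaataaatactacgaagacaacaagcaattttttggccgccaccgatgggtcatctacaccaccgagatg
Gm15920: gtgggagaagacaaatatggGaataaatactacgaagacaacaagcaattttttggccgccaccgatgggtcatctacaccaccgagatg

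These pairs bear on the exceptions above. With the reads of its copies added, Atp5g2 reached 166, 210, 227 and 141 CPM in vehicle 0 to 3 and 169, 203, 185 and 149 in SR59230A 1 to 4, and its difference between the tumor sets went from -0.03 to 0.33 (edgeR adjusted p = 0.126). Ndufb4 stayed near no difference between the tumor sets, at -0.02 alone and -0.01 with copies. For treatment its log2 difference went from 0.18 alone to -0.02 with copies (edgeR adjusted p = 0.996), and the groups, at 36.5 to 46.2 CPM with vehicle and 37.6 to 44.9 with SR59230A, then overlapped. Ndufa12 (chr10:94198720-94221443, + strand), an accessory subunit of the NADH-binding arm, had 53.9, 56.4, 66.9 and 49.9 CPM in vehicle 0 to 3 and 40.1, 44.4, 30.2 and 46.4 in SR59230A 1 to 4 (-0.49, SE 0.15, edgeR adjusted p = 0.996, exact permutation p = 0.0286, the smallest of this design). With copies it had 128, 131, 149 and 96.4 against 91.8, 100.04, 69.9 and 98.7, so the groups then overlapped at vehicle 3 while the log2 difference stayed at -0.49 (edgeR adjusted p = 0.996). Smaller shares in copies were found for Cox7a2l (20.8%), Cox7c (15.0%) and Atp5g1 (11.2%). Gm48789 (129 bases), the copy of Atp5g1 with most reads, aligned to only 12 of the 411 coding bases, with 1 difference. Its match was thus to the transcript and hardly to the coding sequence. With copies added, 4 members were called between the tumor sets and 0 by treatment, as without them. Atp5g1, not among the 4, went from 0.50 (edgeR adjusted p = 0.042) alone to 0.46 (edgeR adjusted p = 0.0578) with copies between the tumor sets.

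**Figure D5:**
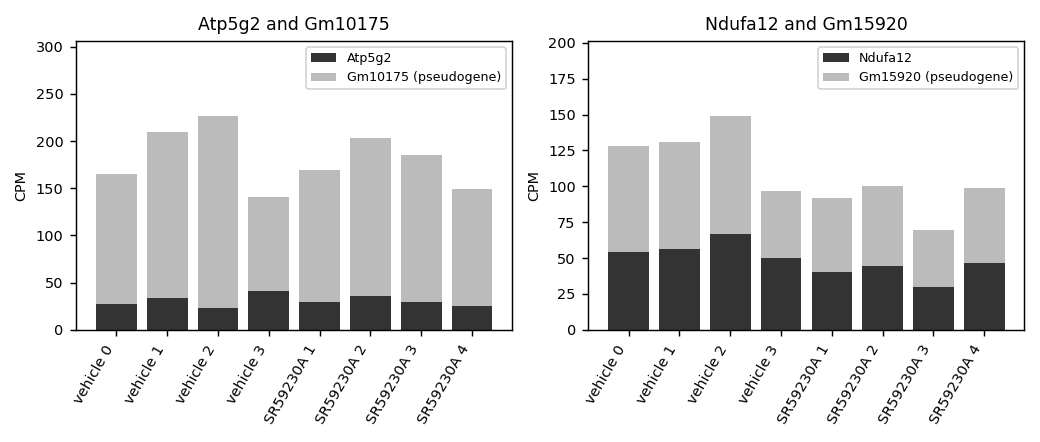
CPM of Atp5g2 with its pseudogene Gm10175 (left) and of Ndufa12 with Gm15920 (right) in each tumor, stacked, with the member dark and the pseudogene light. The member's part is the smaller in every bar at left and in every bar but vehicle 3 at right, and the bars of vehicle 1 and 2 are the tallest in each panel.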

How the data were processed

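The labels describe 8 bulk tumor RNA libraries (stranded total RNA, ribosomal RNA depleted). Per the labels and the methods, the authors quantified transcripts with Salmon (version and settings as in their methods, GRCm38 transcriptome; the submitters' processing notes name GRCm39). The deposited tables hold, for each transcript, an estimated count and a TPM value, neither scaled between libraries. The authors also deposited gene values normalized by DESeq2 (a signal, scaled between libraries), which hold 34 of the 81 members tested and in which vehicle has a column without a number, so they served for treatment only.

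Estimated counts were matched by transcript identifier to GENCODE annotation of GRCm38 (115685 of 116747, 99.1%), summed per symbol and rounded. edgeR 4.0.16 (R 4.3.3) gave TMM factors, the default low-count filter on treatment and the quasi-likelihood test, with Benjamini-Hochberg adjustment over 15193 genes. Models held treatment, treatment with tumor set, or their interaction. Genes were called at an adjusted p below 0.05 with a log2 change of 0.5 or more in either direction. For single genes an exact permutation test (two-sided, 70 assignments) was run on log2 CPM. DESeq2 1.42.0, limma 3.58.1 on log2(TPM + 1), log2(TPM + 0.1) and log2(normalized count + 1), other scalings, filters and sample sets were alternatives. Tested on simulated data for all 15193 genes, edgeR recovered 26% of genes changed by 0.75 on the log2 scale, 52% at 1 and 86% at 2 for treatment, and 24%, 56% and 86% for tumor set.

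Members, lists and the tumor sets were chosen with earlier results of these data known. Named genes were isoform pairs, catalytic subunits, the highest and lowest TPM and smallest p of each complex, and up to 10 members per contrast that were called or separated groups. Copies were found by blastn of members' coding transcripts against annotated pseudogene transcripts, chosen after the values were seen. Intervals and limits cover counting error only. A member that the naming rule takes is not reported here, though it stays in the counts and medians.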

Additional observations from a re-analysis of the deposited data

Results flagged for a closer look

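In 88 groups of 4 tumors (the mean of all members and of each complex, and 38 named members, in each treatment), the highest or lowest tumor was set against the rest by Dixon's gap test, for which chance marks about 1 group in 20. It marked 2. Ndufa4l2 in SR59230A 1 was at 6.083 CPM, above 4.44 to 4.57 in SR59230A 2, 3 and 4, the gap being 0.917 of the range. Cox6c in SR59230A 2 was at 97.79 CPM, below 125 to 130 in SR59230A 1, 3 and 4, with a gap of 0.842 of the range. No named member passed an adjusted p under 0.05 for the interaction of treatment with tumor set.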

How the results depend on the processing

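For treatment, 0 members were called in each of the fits run, and all genes called moved from 0 to 36 with DESeq2, 5 within the other tumors only, and 0 to 1 when 1 tumor was left out. For tumor set, the members called moved from 4 to 9 (DESeq2), 44 (library totals), 11 (length-scaled TPM), 13 (no filter on low counts), 78 (limma on TPM with either pseudocount), 10 (without SR59230A 1 and 2) and 0 (without vehicle 0, vehicle 3 and SR59230A 4), and ran from 0 to 11 with 1 tumor left out. The genes called moved from 824 to 1696 (DESeq2), 3249 (library totals), 7359 and 8111 (TPM + 1 and + 0.1), 6 (without those 3 tumors) and 0 to 1626 (leaving out 1 tumor). The calls upward were 214 of 824 here, 2516 of 3249 with library totals and 6923 of 7359 on TPM + 1. The median of the members rose from 0.275 to 0.533 (library totals), 0.821 and 0.825 (TPM + 1 and + 0.1) and 0.367 (without SR59230A 1 and 2). It fell to 0.118 without the 3 tumors, and in each of these fits it stayed on the side of tumors 1 and 2. On TPM, Atp5g2 (0.525 and 0.53) and Ndufb4 (0.55 and 0.559) turned upward. TPM and library totals moved the median of all genes too, to 0.474 and 0.267. The interaction called 0 members in each fit, and all genes went from 0 to 61 (DESeq2), 7 (no filter), 2 and 4 (TPM + 1 and + 0.1), and 0 to 27 with 1 tumor left out. Of the single values of named members and complexes between the tumor sets, 643 stayed within 1 SD or kept their call, 111 passed the thresholds newly, 30 lost them and 72 moved by more; for treatment 993 stayed and 20 moved. The causes were not tested. With the replicate number as a block for treatment, 0 genes were called and the median of members was -0.003. Same-numbered tumors correlated in their deviations by 0.01, 0.626 and 0.534 for numbers 1, 2 and 3. Vehicle 1 and SR59230A 2, of unlike number, correlated by 0.631, so these values do not pair the samples by number. Depth limits Cox6a2, Cox6b2, Cox8b and Cox8c, each with under 100 reads in every tumor.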
